A study of Mus musculus with 77 samples.

Results

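Chromosome 17 of the mouse carries the major histocompatibility complex (MHC) and the genes of the t-complex, and its replication was followed here in single cells of cloned embryos. Its members were all bins of 80 kb placed on chromosome 17 in the deposited profiles, 1190 of the 32973 bins. The chromosome was cut at fixed positions into a proximal part from 3 to 22 Mb (238 bins), a middle part from 22 to 50 Mb (350 bins) and a distal part from 50 Mb to the end (565 bins), and the other 37 bins lie below 3 Mb and had no call. The MHC was taken as the 43 bins at chr17:33520001-36960000 within the middle part. Of the 1190 bins, 1149 were called in at least 1 cell and 1001 in every cell. All coordinates of bins are in genome build mm9.

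The samples are single blastomeres of mouse embryos of strain BDF1 cloned through nuclear transfer (SCNT), where the nucleus of a somatic cell replaces that of the oocyte, and all embryos were cultured in vitro. Embryos at the 8-cell stage numbered 12 and gave 49 cells, and those at the 4-cell stage numbered 14 and gave 28 cells, with no other genotype or treatment, and no embryo from fertilization was analysed here. The donor cell type is not given in the sources used here. Single-cell Repli-seq calls each bin replicated or not replicated from DNA copy number, so the share of replicated bins, the authors' Repliscore, gives the position of a cell in S phase. Each cell had 1039 to 1149 called bins of chromosome 17 at the 8-cell stage and 1135 to 1148 in 4-cell embryos, and the read depth behind the calls is unknown.

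Vertebrate chromosomes replicate in domains that are copied early or late in S phase in an order shared by most cells of a type. Early domains are mostly gene-rich and transcriptionally active, and late domains are mostly gene-poor and lie at the nuclear periphery. The MHC is among the densest gene clusters of the genome and encodes the antigen-presenting class I and class II proteins, with complement and cytokine genes in the class III segment between them.

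The promoters of 4 genes, picked as examples from early and late loci, are shown with every CpG dinucleotide in capitals. They are the 250 bases before the annotated start in RefSeq's tables for GRCm38.p6, a later build than the bins', written 5′ to 3′ along the gene. Fkbp5, a co-chaperone of steroid receptors (chr17:28486150-28486399, minus strand), and Pou5f1, the pluripotency factor of the inner cell mass (chr17:35505782-35506031, plus strand), lay in early domains at both stages. Alk, a receptor tyrosine kinase (chr17:72604308-72604557, minus strand), was late at the 8-cell stage and intermediate in 4-cell embryos. Pgk2, a testis-specific glycolytic kinase (chr17:40208610-40208859, minus strand), was late at both stages.
Fkbp5: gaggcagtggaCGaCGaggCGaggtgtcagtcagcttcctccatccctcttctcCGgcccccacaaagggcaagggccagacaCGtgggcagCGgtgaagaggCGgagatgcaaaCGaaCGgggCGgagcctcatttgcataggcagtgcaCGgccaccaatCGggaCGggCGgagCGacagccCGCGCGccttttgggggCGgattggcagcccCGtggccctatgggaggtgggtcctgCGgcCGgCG
Pou5f1: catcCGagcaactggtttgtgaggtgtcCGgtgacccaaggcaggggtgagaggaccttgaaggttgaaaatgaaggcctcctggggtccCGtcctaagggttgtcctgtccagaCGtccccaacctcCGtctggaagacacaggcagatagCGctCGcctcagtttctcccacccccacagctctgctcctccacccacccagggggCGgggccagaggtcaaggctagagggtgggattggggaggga
Alk: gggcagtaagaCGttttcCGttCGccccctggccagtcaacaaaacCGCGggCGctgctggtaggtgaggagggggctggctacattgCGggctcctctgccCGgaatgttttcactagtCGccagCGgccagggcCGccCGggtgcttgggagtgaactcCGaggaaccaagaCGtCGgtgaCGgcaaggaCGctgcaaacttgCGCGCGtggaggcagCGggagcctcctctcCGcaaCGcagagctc
Pgk2: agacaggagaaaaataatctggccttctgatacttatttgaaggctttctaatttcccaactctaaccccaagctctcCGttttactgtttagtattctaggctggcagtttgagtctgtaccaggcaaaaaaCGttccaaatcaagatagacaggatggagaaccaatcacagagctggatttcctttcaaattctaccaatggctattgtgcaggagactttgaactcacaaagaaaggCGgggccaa
These windows hold 23 CpG for Fkbp5, 8 for Pou5f1, 23 for Alk and 3 for Pgk2. Alk and Fkbp5 thus had the same number, while the bins around their listed positions were late and early in 8-cell embryos. The listed positions are approximate and in another build, so a promoter may lie outside the bins classed for its gene. Promoters were listed for 45 of the 55 genes whose surroundings are described below. At least 10 CpG, counted on 1 strand, which reads the same on the other, were found in 19 of the 25 loci early at both stages, in 10 of the other 20, and in 38.2% of the first promoters of all 27025 genes in the table. Across the 45 loci the number of CpG and the replicated share had a Pearson r of 0.08 at the 8-cell stage and 0.17 in 4-cell embryos. A replication call averages 80 kb and a promoter window covers 250 bases, and neighbouring loci share bins.

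The comparisons used mid-S cells, those with a Repliscore of 30 to 70%, averaged per embryo. The 8-cell stage had 28 such cells in 10 embryos (1 to 7 each) and the 4-cell stage 18 in 9 embryos (1 to 4 each). The authors' annotation gives a batch code for each cell. Cells with the highest code are called the later batch here and the rest the earlier batch, names that follow only the order of the codes. Library names of the later batch fall into different series, each with cells of both stages, which were not told apart. The earlier batch held only 4-cell embryos, 5 of the 9 with mid-S cells, and the later batch held all 8-cell embryos and the other 4. Mid-S cells with a run of one state of at least 30 Mb on some autosome numbered 11 of 28 at the 8-cell stage, in 4 embryos, and 6 of 18 at the 4-cell stage, in 3 embryos of the later batch. None of these runs lay on chromosome 17, where the longest run was 17.84 Mb in 8-cell and 17.92 Mb in 4-cell mid-S cells. In the mid-S embryos the autosomes other than 17 were replicated to 49.4% ± 8.12 (SD, n = 10) at the 8-cell stage and 54.2% ± 8.94 (SD, n = 9) in 4-cell embryos, so raw shares were taken at slightly unlike positions in S phase. The offset of a region, its replicated percent minus that of the autosomes other than 17 in the same cell, sets each region against this position. Embryos, not cells, were the units of the tests, and embryo means of 1 to 7 cells counted alike.

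Chromosome 17 was ahead of the other autosomes in most embryos, with the middle part furthest ahead of its 3 parts on average. The offset of the whole chromosome had a lowest, median and highest embryo value of 4.23, 8.11 and 11.4 percentage points at the 8-cell stage and of -0.293, 6.57 and 12.6 points in 4-cell embryos, positive in 10 of 10 8-cell and 8 of 9 4-cell embryos. The 8-cell range lay wholly inside the 4-cell range. The middle part lay 20.1 ± 4.06 points ahead at the 8-cell stage (SD, n = 10) and 20.04 ± 4.53 points ahead in 4-cell embryos (SD, n = 9), and every embryo was positive. The distal part was close to the other autosomes, at -0.466 ± 1.95 points at the 8-cell stage and -2.83 ± 5.05 points in 4-cell embryos. The proximal part stood between them, at 9.76 ± 4.81 points in 8-cell and 10.9 ± 10.8 points in 4-cell embryos.

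**Figure D1:**
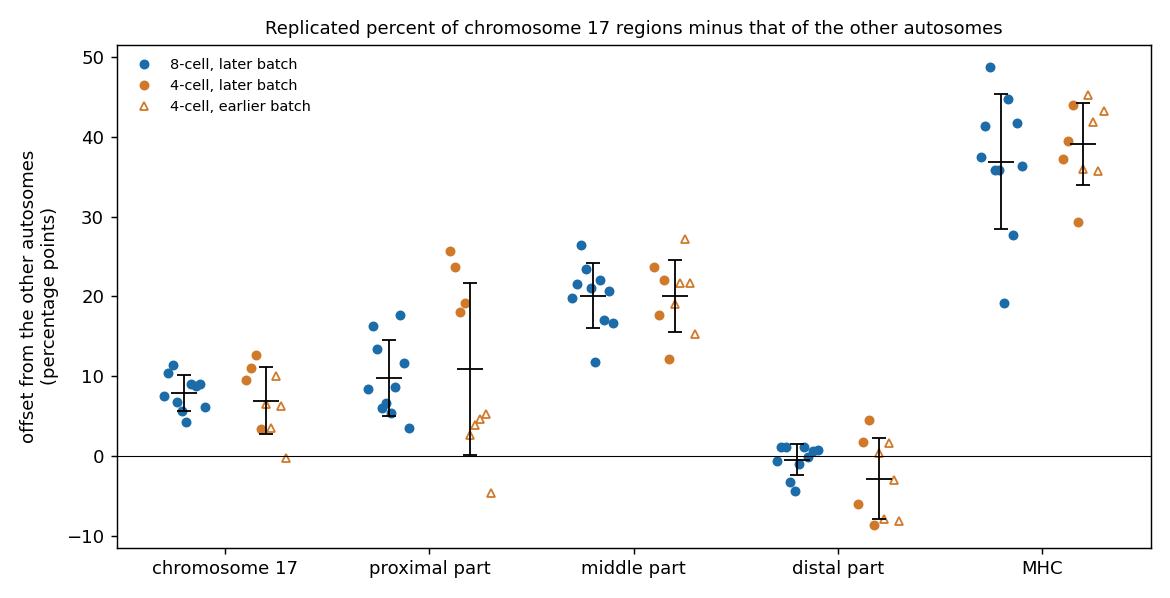
Offsets of chromosome 17 and its regions from the other autosomes (vertical axis, percentage points), 1 point per embryo with mid-S cells, 8-cell embryos left of 4-cell embryos, with the mean and SD in black and open triangles for the earlier batch. The middle part and the MHC lie above 0 in every embryo of both stages, and the proximal part of the 4-cell embryos falls into a high later batch and a low earlier batch.

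Of the whole chromosome, its 3 parts and the MHC, the MHC had the highest offset. This lead was not particular to the MHC. The early domain chr17:23600001-30880000 of the same part, listed because its bins were early, had mean shares of 97.5% in 8-cell and 97.4% in 4-cell embryos. The MHC means were 86.2% and 93.3%. Its 43 bins were replicated to 73.6%, 87.4% and 92.4% at the 8-cell stage (lowest, median and highest of 10 embryos) and to 81.4%, 97.7% and 100% in 4-cell embryos (9 embryos). Its offset was 36.9 ± 8.48 points at the 8-cell stage and 39.1 ± 5.09 points in 4-cell embryos. Within the same embryos it exceeded the rest of the middle part by 19.1 ± 6.04 points at the 8-cell stage, in 10 of 10 embryos, and by 21.7 ± 5.68 points at the 4-cell stage, in 9 of 9 embryos (two-sided exact sign-flip tests over embryos, Benjamini-Hochberg adjusted over 8 region pairs, adjusted p = 0.00446 for both).

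The order of the 3 parts was tested in the same way. The middle part exceeded the distal part by 20.5 ± 4.47 points at the 8-cell stage and by 22.9 ± 5.01 points in 4-cell embryos, in every embryo (exact sign-flip tests, adjusted p = 0.00446 for both). The proximal part exceeded the distal part by 10.2 ± 4.32 points at the 8-cell stage and by 13.7 ± 11.04 points in 4-cell embryos, again in every embryo (exact sign-flip tests, adjusted p = 0.00446 for both). The middle part exceeded the proximal part by 10.3 ± 5.34 points at the 8-cell stage, in 9 of 10 embryos (exact sign-flip test, adjusted p = 0.00446). At the 4-cell stage that gap was 9.13 ± 11.8 points, positive in 6 of 9 embryos, and did not pass (exact sign-flip test, adjusted p = 0.0547). It passed without 4-cell embryo 3 or without 4-cell embryo 7 (adjusted p = 0.0469 for each, exact sign-flip tests). Within the later batch, over 4 such embryos, the gap of the middle over the proximal part was -2.73 points and that of the proximal over the distal part 23.7 points, so the pooled 4-cell means average unlike batches.

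With all embryos and the mean of the other autosomes as the base, no difference in offset between the stages passed the test. The 8-cell minus 4-cell differences were 0.944 points for the chromosome, -1.15 for the proximal, 0.04 for the middle and 2.37 for the distal part, and -2.24 for the MHC (two-sided exact permutation of stage over embryos, adjusted p from 0.91 to 0.984 over the 5 regions). Against the median of the other autosomes the distal part differed by 4.40 points and passed (exact permutation, adjusted p = 0.0363). The stage differences in the gaps between regions did not pass either, with the smallest adjusted p at 0.49 (exact permutation, 4 pairs). For the MHC these tests are limited by a ceiling, since its 4-cell median was 97.7% and 3 of the 9 embryos stood at 100%. At 100% the offset depends only on the other autosomes, so a stage difference of the MHC could not show fully. The proximal part differed by batch. Its offset in 4-cell embryos was 21.6 ± 3.61 points in the later batch (n = 4) and 2.34 ± 4.05 points in the earlier batch (n = 5), with no overlap. Within the later batch the 8-cell embryos lay 11.9 points below the 4-cell embryos (difference -11.9, exact permutation, adjusted p = 0.005). The 4 embryos concerned had 61.6% ± 5.12 of the other autosomes replicated, against 48.3% ± 6.44 in the earlier batch, and 3 of them held only cells with runs of at least 30 Mb, while 4-cell embryo 7, with no such cell, had an offset of 19.2 points. The part of batch, position in S phase or embryo in this difference was not tested, and only the later batch holds both stages.

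**Figure D2:**
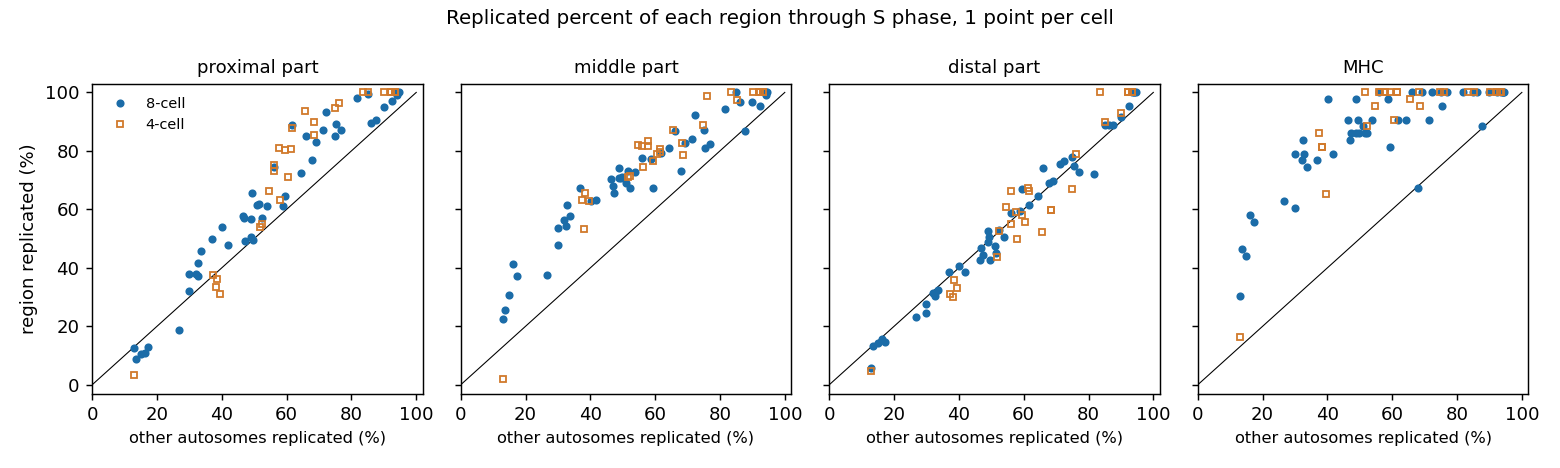
Replicated percent of the proximal, middle and distal part and of the MHC (vertical axes, percent) against that of the autosomes other than 17 (horizontal axes, percent), 1 point per cell, for 49 8-cell and 28 4-cell cells, with the line of equality. Points of the MHC and the middle part lie above the line over most of S phase, while those of the distal part follow it.

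The same order was seen when all 49 8-cell cells, early and late in S phase included, were placed by their other autosomes. A monotone curve through the cells reached 50% for the MHC class III segment when 13.4% of the other autosomes were replicated. The crossing was at 13.7% for class II, 15.6% for the class I genes H2-D and H2-Q, and 15.5% for the MHC as a whole. The lowest 8-cell cell stood at 12.9% and held a run of one state of 112 Mb. The crossings from 13.4% to 15.6% thus lie close to the lower end of the data, where few cells stand, and give no order among these segments. The segment chr17:36080001-36960000, called H2-T and H2-M here, followed at 39.8%. At both stages it joins early bins, around H2-T23, to intermediate ones, and the listed position of H2-M3 lies beyond it. The cluster of formyl peptide and vomeronasal receptors (Fpr and Vmn2r) crossed at 54.4% and the olfactory receptor cluster beside the MHC at 77.4%. The middle, proximal and distal parts crossed at 30%, 37% and 52%. Of the 4-cell cells 1 lay in early S phase, so only crossings within the range of the mid-S cells are given for that stage. They were at 42.6% for H2-T and H2-M, 49.3% for the proximal and 52.2% for the distal part, 53% for the olfactory receptor cluster and 58.4% for the Fpr and Vmn2r cluster, so the last 2 clusters stood in the opposite order to that in 8-cell cells. The crossings have no test.

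Bins were classed by the share of mid-S cells in which they were replicated, averaged over embryos, as early at 80% or more and late at 20% or less. On chromosome 17, 463 of 1147 classed bins were early at the 8-cell stage (40.4%, where all autosomes had 32.8%) and 474 of 1147 in 4-cell embryos (41.3%, where all autosomes had 32%). Late bins numbered 282 at the 8-cell stage (24.6%, against 33.2% of all autosomes) and 198 in 4-cell embryos (17.3%, against 21.2%). By its share of early bins the chromosome ranked 2nd of 19 autosomes at the 8-cell stage and 3rd in 4-cell embryos. Early at both stages were 419 bins (36.5%, against 26.3% of all autosomes) and late at both were 160 (13.9%, against 17.8%). None of the 1147 bins was early at one stage and late at the other. Such bins were also rare on the other autosomes, at 29 of 28598. Their absence is thus not read as a trait of chromosome 17. Across the 1147 bins the shares of the 2 stages had a Pearson r of 0.90. The share was lower by 20 points or more at the 8-cell stage in 192 bins and higher by as much in 61. These are raw shares, and the same count over all autosomes is not given here, so it is not read as a trait of chromosome 17. With position in S phase as a covariate, 41 of the 92 1-Mb windows described below were lower and 51 higher at the 8-cell stage.

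**Figure D3:**
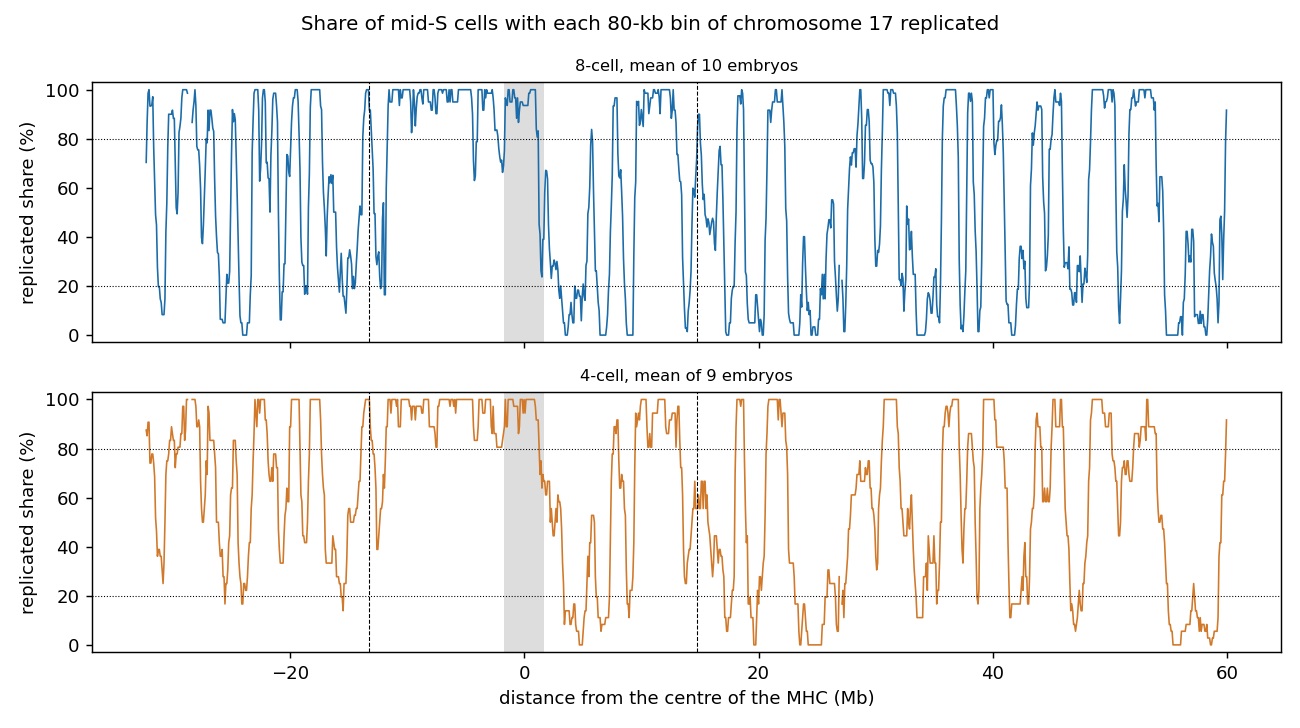
Share of mid-S cells with each 80-kb bin of chromosome 17 replicated (vertical axis, percent, mean over embryos), 8-cell embryos above and 4-cell embryos below, by distance from the centre of the MHC in Mb. Grey marks the MHC, dashed lines the borders of the parts and dotted lines 80% and 20%. A broad early plateau runs into the MHC at both stages and ends before its distal border, with lower shares beyond it in 8-cell than in 4-cell embryos over most of the flank.

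The early bins were unevenly spread. In the middle part 201 of 350 bins (57.4%) were early at the 8-cell stage and 221 (63.1%) in 4-cell embryos. In the distal part, of 563 classed bins, 174 (30.9%) were early in 8-cell and 166 (29.5%) in 4-cell embryos. In the proximal part, of 234, 88 (37.6%) were early in 8-cell and 87 (37.2%) in 4-cell embryos, with 43 late bins at the 8-cell stage and 6 in 4-cell embryos. Of the 43 MHC bins, 36 were early at the 8-cell stage and 38 in 4-cell embryos, and 0 were late at either stage.

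Runs of at least 10 bins of one class were listed as domains. There were 14 early domains covering 28.8 Mb at the 8-cell stage and 14 covering 34 Mb in 4-cell embryos. Late domains numbered 11 (14.7 Mb) at the 8-cell stage and 7 (11.9 Mb) in 4-cell embryos. Of the bins in early domains, 96.9% at the 8-cell stage and 82.1% in 4-cell embryos also lay in an early domain of the other stage. For late domains these shares were 60.9% of the 8-cell and 75.2% of the 4-cell bins. Domain counts and overlaps over all autosomes are not given here, so they are not read as traits of chromosome 17.

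The longest early domain at the 8-cell stage was chr17:23600001-30880000, 7.28 Mb long, with a mean share of 97.5% in 8-cell and 97.4% in 4-cell embryos. It holds Pkd1, the polycystic kidney disease gene, Sox8, a transcription factor, Axin1, a scaffold of Wnt signalling, Fkbp5, the stress kinase gene Mapk14, the cell cycle inhibitor gene Cdkn1a and the kinase gene Pim1. At the 4-cell stage the longest, chr17:23440001-36560000, was continuous over 13.1 Mb and included these genes, the metabolic enzyme gene Cbs and the MHC up to the class I gene H2-T23. In 8-cell embryos the same stretch was broken into 3 domains, the other 2 being chr17:31280001-33040000 with Cbs and chr17:33600001-36480000 with the MHC. Most of it was early there as well, since 149 bins of the 4-cell domain were early at the 8-cell stage too and the mean share over it was 94.0% in 8-cell and 95.7% in 4-cell embryos.

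Other long early domains lay on both sides. The 2nd longest at each stage, chr17:44800001-48240000 in 8-cell and chr17:44720001-48560000 in 4-cell embryos, holds the angiogenic factor gene Vegfa, the cyclin gene Ccnd3 and the lysosomal regulator gene Tfeb, and at the 4-cell stage also the listed position of Runx2, the bone transcription factor gene. In the distal part chr17:86800001-89120000 at the 8-cell stage, with the hypoxia factor gene Epas1 and the adhesion gene Epcam, had a mean share of 96.8% in 8-cell and 84.6% in 4-cell embryos. Its 4-cell counterpart was chr17:87200001-89200000. The domain chr17:83600001-85680000 at the 8-cell stage was matched by chr17:83520001-85360000 at the 4-cell stage, and no gene of the list lies there. In the proximal part chr17:5680001-7600000 was among the 5 longest at the 4-cell stage, with a mean share of 88.7% in 8-cell and 91.7% in 4-cell embryos.

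The longest late domain at the 8-cell stage, chr17:38160001-40240000, began distal to the MHC and had a mean share of 10.8% in 8-cell and 17.4% in 4-cell embryos. Its 4-cell counterpart was chr17:38640001-40560000, which reached Pgk2. The longest late domain at the 4-cell stage was chr17:58320001-61120000, 2.8 Mb long, with 12.5% in 8-cell and 6.51% in 4-cell embryos, and the 8-cell domain chr17:59280001-60640000 lies within it. Near the distal end chr17:92400001-94480000 was late at the 4-cell stage, with 13.97% in 8-cell and 7.05% in 4-cell embryos. At chr17:54240001-55760000 the share was 6.64% in 8-cell and 18.7% in 4-cell embryos, and at chr17:68640001-70160000 it was 5.97% in 8-cell and 23.8% in 4-cell embryos, so that 8 of the 19 bins of the second were late at the 4-cell stage. The 5th longest at the 4-cell stage, chr17:41360001-42560000, had 8.27% in 8-cell and 11.7% in 4-cell embryos.

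At the distal flank of the MHC timing changed from early to late over a short stretch. From the last early bin to the first late bin it spanned chr17:36480001-38160000 at the 8-cell stage (1.68 Mb, 21 bins) and chr17:36560001-38640000 in 4-cell embryos (2.08 Mb, 26 bins). In 8-cell embryos the share was 83.2% in the bin ending at 36480000 and 45.1% in the next, 23.7% in the bin starting at 36720001, 67.1% in that starting at 37040001 and 23.1% in that starting at 37520001. In 4-cell embryos the same bins had 91.7%, 80.6%, 63.9%, 61.1% and 55.6%, with no such dip and peak. The median over each stage's own stretch was 30.6% in 8-cell (21 bins) and 58.3% in 4-cell embryos (26 bins), so the medians cover unlike bins. These are shares per bin without a test of their own. The 1-Mb windows of the flank are among those tested below.

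Within the MHC the class II genes, which present extracellular antigen, were replicated to 97.2% ± 6.0 at the 8-cell stage (SD, n = 10 embryos) and 98.6% ± 4.17 in 4-cell embryos (SD, n = 9). The class III segment had 93.4% ± 13.8 in 8-cell and 95.7% ± 7.23 in 4-cell embryos, so both segments were near full replication in most embryos. The class I genes H2-D and H2-Q had 93.6% ± 16.0 at the 8-cell stage and 100% in each of the 9 4-cell embryos. The segment called H2-T and H2-M had a lowest, median and highest embryo of 27.3%, 63.6% and 72.7% at the 8-cell stage. In 4-cell embryos these were 54.5%, 95.5% and 100%, and the groups overlapped between 54.5% and 72.7%. These values average early and intermediate bins. Around H2-T23 the mean was 92.6% in 8-cell and 96.0% in 4-cell embryos. Around H2-M3, beyond the segment, it was 41.6% in 8-cell and 59.5% in 4-cell embryos. The olfactory receptor cluster beside the MHC, whose genes are expressed in sensory neurons, had 0%, 22.2% and 66.7% in 8-cell embryos and 6.67%, 50% and 90% in 4-cell embryos. The Fpr and Vmn2r cluster of the proximal part, also of chemosensory receptors, had 41.96% ± 21.9 at the 8-cell stage and 42.5% ± 24.3 in 4-cell embryos. Differences of single clusters were not tested on their own.

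Around each of 55 genes the share was taken over 7 bins (560 kb) centred on an approximate mm9 position. At the 8-cell stage 30 loci were early, 20 intermediate and 5 late, and at the 4-cell stage 31 were early, 21 intermediate and 3 late. Early at both stages were 29, and 19 of these were among the 24 loci of the middle part, 4 among the 10 of the proximal part and 6 among the 21 of the distal part. Pou5f1 had 78.6%, 100% and 100% in 8-cell embryos (lowest, median and highest) and 100% in all 9 4-cell embryos. Igf2r, the imprinted receptor for insulin-like growth factor, had 64.3%, 91.1% and 100% at the 8-cell stage and 92.9%, 100% and 100% in 4-cell embryos. The mesoderm factor gene T had 42.9%, 91.1% and 100% at the 8-cell stage and 14.3%, 100% and 100% in 4-cell embryos. These 3 developmental genes were thus early on average at both stages, with embryos that ranged widely at T.

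Other loci were late, changed class or had unlike means at the stages. Pgk2 had 0%, 19.6% and 33.3% at the 8-cell stage and 0%, 0% and 46.4% in 4-cell embryos. Park2, the parkin ubiquitin ligase gene, had 0%, 0% and 21.4% at the 8-cell stage, with 6 of 10 embryos at 0%, and 0%, 14.3% and 100% at the 4-cell stage. By its mean Pgk2 was late at both stages, and Park2 was late in 8-cell and intermediate in 4-cell embryos. Alk had 0%, 8.33% and 35.7% at the 8-cell stage and 21.4%, 28.6% and 100% in 4-cell embryos, where 3 of 9 embryos stood at 100%. The chromatin organizer gene Satb1, intermediate at both stages, had a higher mean at the 8-cell stage, with 0%, 78.1% and 100% in 8-cell embryos and 0%, 39.3% and 92.9% in 4-cell embryos. Epas1 had 66.7%, 100% and 100% at the 8-cell stage and 0%, 78.6% and 100% in 4-cell embryos. At each of these loci the ranges of the stages overlapped.

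**Figure D4:**
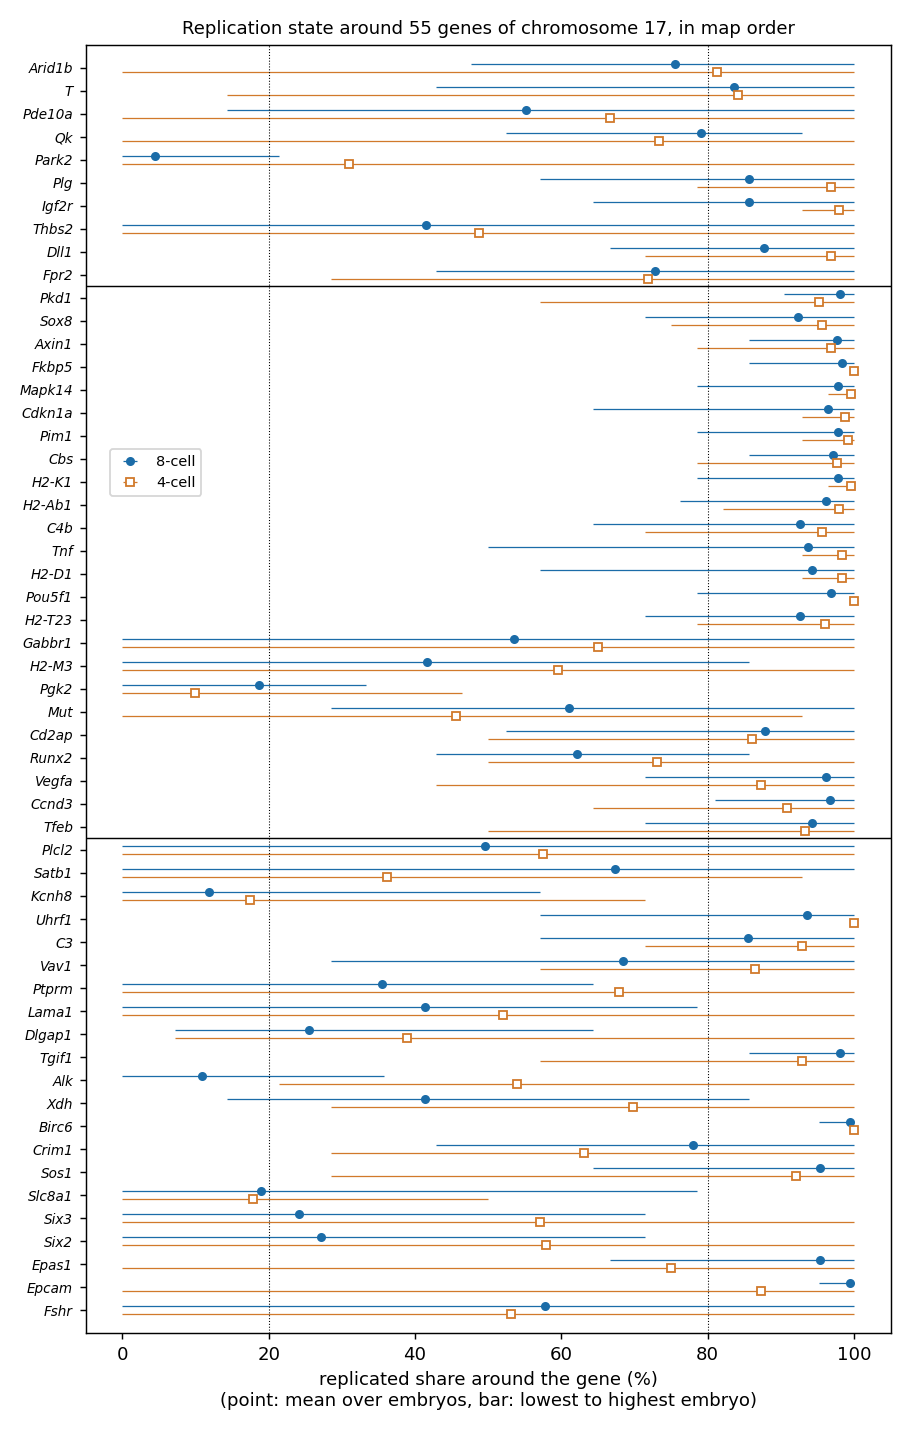
Replicated share in the 560 kb around 55 genes (horizontal axis, percent) in map order from the top, with horizontal lines between the proximal, middle and distal parts, filled circles for 8-cell and open squares for 4-cell embryos, points at the mean over embryos and bars from the lowest to the highest embryo. Genes from Pkd1 to H2-T23 form an unbroken early block at both stages, and Alk and Park2 have lower means at the 8-cell stage.

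The replicated share went with the number of genes along the chromosome. Between neighbouring loci of the list at least 500 kb apart, 40 intervals, protein-coding genes were counted in the order of the RefSeq table. Genes per Mb and the mean share of the interval had a Pearson r of 0.59 and a Spearman rho of 0.65 at the 8-cell stage, and 0.59 and 0.64 in 4-cell embryos, over intervals that share neighbours and lengths known only approximately. Intervals are named here after their values were seen. The densest, Sox8 to Axin1, had 51.9 genes per Mb with a share of 94.5% in 8-cell and 96.5% in 4-cell embryos, and Pou5f1 to H2-T23 had 49.5 with 99.8% in 8-cell and 100% in 4-cell embryos. Satb1 to Kcnh8 held 0 other coding genes over 1 Mb, with 28.3% in 8-cell and 19.7% in 4-cell embryos. Dlgap1 to Tgif1 also held 0, over 0.5 Mb, yet had 72.2% in 8-cell and 75% in 4-cell embryos. In the opposite way, H2-M3 to Pgk2, which includes olfactory receptor genes, had 16.0 genes per Mb with 15.4% in 8-cell and 25.5% in 4-cell embryos.

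Whether single places of the chromosome differed between the stages was tested in 1-Mb windows over the whole genome, in a model of stage with the embryo's mean position in S phase (percent of the autosomes replicated) as a covariate. Of 92 chromosome 17 windows tested, 0 had an adjusted p under 0.05 (limma, Benjamini-Hochberg over 2536 windows, of which 0.473% were called). At an unadjusted p under 0.05 there were 11, 6 lower and 5 higher at the 8-cell stage, 11.96% of the windows where all windows had 15.5%. The median fitted difference was 2.01 points on chromosome 17 and -0.384 points over all windows. The 4 windows named next had the smallest adjusted p among the 10 with the largest differences, and the median standard error of a window was 7.03 points.

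The window chr17:72000001-73000000, with Alk, had 23.1%, 37.6% and 57.7% replicated in 8-cell embryos (lowest, median and highest) and 42.3%, 57.7% and 100% in 4-cell embryos. The fit gave -24.3 ± 7.84 points (SE), and the smallest adjusted p on the chromosome, 0.174 by limma. The window chr17:38000001-39000000, at the end of the olfactory receptor cluster, had 0%, 7.69% and 42.3% in 8-cell and 0%, 40.4% and 73.1% in 4-cell embryos, a fitted difference of -24.4 ± 10.0 points (SE, limma, adjusted p = 0.251). The window chr17:87000001-88000000, with Epas1, had 87.5%, 100% and 100% in 8-cell and 0%, 91.7% and 100% in 4-cell embryos, a fitted difference of 22.6 ± 8.34 points (SE, limma, adjusted p = 0.219). The window chr17:40000001-41000000, with Pgk2, had 15.4%, 36.5% and 53.8% in 8-cell and 0%, 19.2% and 57.7% in 4-cell embryos (18.3 ± 8.06 points, SE, limma, adjusted p = 0.273). In all 4 windows the ranges of the stages overlapped. The other 6 were 3 with lower values at the 8-cell stage, at chr17:11000001-12000000 with Park2 (-15.8), chr17:69000001-70000000 (-20.01) and chr17:76000001-77000000 (-15.7), and 3 with higher values, at chr17:18000001-19000000 with Fpr2, a formyl peptide receptor gene (23.05), chr17:63000001-64000000 (25.1) and chr17:64000001-65000000 (20.1). Without the cells with long runs the Fpr2 window was called, at 40.1 ± 7.79 points (SE, limma, adjusted p = 0.0246). That setting leaves out 4-cell embryos 1, 3 and 6, all of whose mid-S cells held such runs. Of the later batch, embryo 7 alone then remained at the 4-cell stage. All 8-cell embryos are of the later batch, so stage and batch can hardly be told apart there. The share of all windows called in that setting is not given here.

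**Figure D5:**
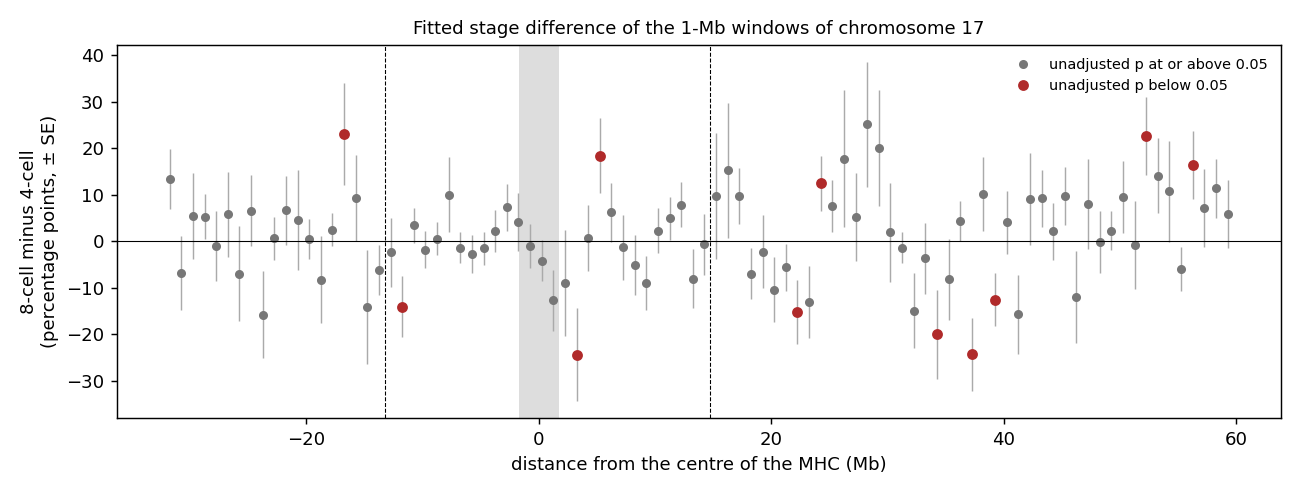
Fitted difference between the stages, 8-cell minus 4-cell (vertical axis, percentage points, bars ± SE), for the 92 1-Mb windows of chromosome 17 by distance from the centre of the MHC in Mb, with the MHC in grey and the part borders dashed. Red marks the 11 windows with an unadjusted p under 0.05, 6 below and 5 above 0, and 0 windows passed after adjustment.

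The profile of chromosome 17 was more finely divided at the 8-cell stage. Changes of state along called bins numbered 7.04 ± 1.22 per 100 bins at the 8-cell stage (SD, n = 10) and 5.09 ± 1.30 in 4-cell embryos (SD, n = 9), a difference of 1.95 (two-sided exact permutation, p = 0.00456). The lowest, median and highest embryos were 4.61, 7.26 and 8.58 at the 8-cell stage and 3.19, 4.67 and 7.35 in 4-cell embryos, so the ranges overlapped. Within the later batch the difference was 2.98 (exact permutation, p = 0.002). The other autosomes had 6.85 ± 0.978 changes per 100 bins in 8-cell and 4.89 ± 1.43 in 4-cell embryos. Mid-S cells of different embryos agreed on chromosome 17 with a mean phi coefficient of 0.565 over 340 pairs at the 8-cell stage and 0.452 over 141 pairs in 4-cell embryos (difference 0.113, exact permutation over embryos, p = 0.0299). That difference was 0.0668 without cells with long runs (exact permutation, p = 0.188) and 0.0934 within the later batch (p = 0.265, exact permutation). It also missed the threshold without 8-cell embryo 11 (difference 0.1004) or without 4-cell embryos 11, 13 or 14 (differences 0.110, 0.111 and 0.0994). The highest p with 1 embryo left out was 0.0644 (exact permutation). The phi coefficient of the other autosomes was 0.547 in 8-cell and 0.379 in 4-cell embryos.

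The first and last bins to replicate could be seen in cells outside mid-S phase. Runs of at least 30 Mb on some autosome occurred in 4 of the 6 early-S cells at the 8-cell stage, and in 10 of 15 8-cell and 9 of 9 4-cell late-S cells. In the 6 early-S 8-cell cells, of 4 embryos, 178 of 1147 bins (15.5%) were replicated in more than 50% of the cells with a call. They were 48.8% of the MHC bins, 29.4% of the middle, 6.84% of the proximal and 10.5% of the distal part. The longest run of them, chr17:28400001-30400000, holds Fkbp5, Mapk14, Cdkn1a and Pim1, and chr17:35520001-36240000 holds Pou5f1 and H2-T23. Shares over all autosomes are not given for these bins or for the late-S bins below, so the counts compare parts of the chromosome only. In late S phase, cells with chromosome 17 fully replicated numbered 3 of 15 at the 8-cell stage and 5 of 9 in 4-cell embryos. Each of these held a run of one state of 156 to 194 Mb on some autosome. Their other autosomes had 0 to 1.49 changes of state per 100 bins, with the median autosome at 99.9 to 100%. Whether whole chromosomes in one state set their Repliscore was not tested. The other late-S cells were 12 8-cell cells of 7 embryos and 4 4-cell cells of 3 embryos. In them, bins still unreplicated in 50% or more of the called cells numbered 97 of 1147 at the 8-cell stage and 127 of 1142 in 4-cell embryos. The distal part held 79 of these in 8-cell and 120 in 4-cell cells, and the MHC 0 at either stage. Among the 5 longest such runs were chr17:57920001-58720000 in 8-cell and chr17:59680001-61040000 in 4-cell cells.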

How the data were processed

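Single blastomeres were isolated by micromanipulation and whole-genome amplified for sequencing, per the labels' protocols. The authors deposited 1 binary profile per cell (1 replicated, -1 not replicated, 0 no call; build mm9, per the submitters' processing notes), and an annotation with the Repliscore, a percent, a noise score, the batch and the embryo, per the file headers. The deposited states have no unit, with aligner and caller not given in the sources used here. Recomputed as the percent of called autosomal bins in state 1, the Repliscore came within 4.98e-09 of the authors' value. Profile columns without a sample numbered 0, and 0 pairs of cells were identical.

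Cell values were averaged per embryo. Stage differences were tested by exact permutation of stage over embryos and region pairs by exact sign flips, with Benjamini-Hochberg adjustment over 5, 8 and 4 tests. Windows of 1 Mb (6 or more called bins in 8 or more cells of each stage) were tested with limma 3.58.1 in R 4.3.3, after the script was tested on simulated data. A bin was classed where at least 50% of the embryos had a call. Other steps used Python 3.11.15, numpy 2.4.6, pandas 2.3.3 and scikit-learn 1.9.0, and figures matplotlib 3.10.9.

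The regions, genes and tests were chosen with earlier results of these data known. Gene positions in mm9 are approximate and come from general knowledge; their order matched that of the RefSeq table for GRCm38.p6 in 54 of 54 neighbouring pairs, and this table gave only names, order and promoters. Domains named are from the 5 longest of each class and stage, plus the 8-cell parts of the longest 4-cell domain, windows the 5 largest fitted differences in each direction, and loci those inside them, the clusters, and Igf2r, T, Pou5f1 and Satb1. Some loci and the 2nd longest late domain of each stage are not reported here. Alternatives were a Repliscore of 40 to 60%, cells without long runs, the later batch, each embryo left out, cells as units, another base, other borders and thresholds, other window settings, and an adjustment for position in S phase that was added after the data had been seen.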

Additional observations from a re-analysis of the deposited data

Results flagged for a closer look

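In 60 groups of 9 or 10 embryos (region offsets and their differences, changes of state, clusters, named loci and named windows) 8 values stood apart from the rest of their group by Dixon's 95% limit. For independent, normally spread values chance alone would give about 1 in 20 groups, but these groups share bins and embryos and many are capped at 100%. In 8-cell embryo 6 the MHC class III segment was replicated to 55.6%, where the other 9 embryos had 88.9% to 100%. The same embryo had 50% at the class I genes H2-D and H2-Q (others 85.7% to 100%) and 78.6% around Pou5f1 (others 89.8% to 100%). In 8-cell embryo 5 the segment called H2-T and H2-M had 27.3% (others 54.5% to 72.7%). In 8-cell embryo 9 the window chr17:11000001-12000000 had 25% (others 0% to 12.5%). In 4-cell embryo 14 the window chr17:87000001-88000000 had 0% (others 77.1% to 100%) and the MHC class III segment had 77.8% (others 94.4% to 100%). In 4-cell embryo 13 the class II genes had 87.5% (others 100%).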

How the results depend on the processing

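At the 8-cell stage the 4 gaps between regions kept direction and passed in each alternative with a test. The middle minus distal, proximal minus distal and MHC gaps at the 4-cell stage did so in all but the later batch, where 4 embryos cannot go below p = 0.125 (20.99, 23.7 and 21.2 points, exact sign-flip tests, adjusted p = 0.143). The 4-cell gap of the middle over the proximal part was -2.73 there and 7.45 to 11.2 with 1 embryo left out. Stage differences (8-cell minus 4-cell, points), none of which passed with the settings of the report, changed sign or call as follows, and the cause was not tested. With a Repliscore of 40 to 60%, offsets differed by -2.64 (chromosome), -1.80 (middle) and -1.85 (distal), and the gaps of the middle over the distal part and of the MHC by 0.0476 and 0.786. Without cells with long runs the proximal offset differed by 3.66, and the gaps of middle over proximal and proximal over distal by -3.15 and 0.326. In the later batch the chromosome differed by -1.23, and the proximal offset (-11.9) and the gaps of middle over proximal (13.1) and proximal over distal (-13.5) passed. Against the median of the other autosomes the proximal part differed by 0.887 and the distal part by 4.40, which passed (exact permutation, adjusted p = 0.0363). With borders at 24 and 52 Mb the gap of middle over distal differed by 0.0354. With borders at 20 and 48 Mb the proximal and middle offsets differed by 0.282 and -0.302 and their gap by -0.583. With the MHC at 34 to 36 Mb its offset and gap differed by 2.28 and 2.42. Adjusted for the other autosomes' percent, an alternative chosen after seeing the data, the proximal and middle offsets differed by 1.59 and -1.14 and their gap by -2.73. With 1 embryo left out the proximal offset ranged from -3.10 to 0.695, the middle from -0.944 to 0.956 and their gap from -0.836 to 2.86.

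The changes of state passed in each alternative with a test (differences 1.62 to 2.98, p = 0.000946 to 0.01, exact permutation). The difference in agreement was 0.0668 without cells with long runs, 0.0934 in the later batch and 0.0864 to 0.133 with 1 embryo left out. With limits of 90% and 10%, 8-cell late bins numbered 177, 4-cell late bins 95 and 4-cell early bins 313. With the bottom 20% of autosomal bins as late, the 8-cell stage had 166. Windows called on chromosome 17 numbered 0 in each alternative except 1 without cells with long runs. In that setting 4-cell embryo 7 alone was of the later batch at its stage. No paired analysis was possible because embryo numbers only name embryos, and no label ties an embryo of one stage to one of the other. The read depth is unknown, and the number of embryos with mid-S cells, together with the single batch that holds both stages, limits which differences could be detected.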

Other observations

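The 1 early-S cell of the 4-cell stage had 3.67% of chromosome 17 replicated, 16.3% of the MHC, 2% of the middle, 3.46% of the proximal and 4.80% of the distal part, and it held a run of one state of 30.7 Mb on the chromosome. With no second cell of its kind these are values of that cell.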
